A study of Homo sapiens with 18 samples.

Results

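Mitochondrial ribosomal protein genes were followed across 3 metastatic derivatives of the breast cancer line MDA-MB-231, with and without knockdown of WDR5. All genes of the counts table whose symbol is MRPL or MRPS followed by a number and at most 1 letter were taken, which gave 78 of 58815 genes. LM2, BrM3 and BoM are derivatives selected for growth in lung, brain and bone, and the cell line labels write BrM2 for the line that the study's methods call BrM3. Lines and arms were taken from the titles, which match the cell line labels, while the source labels name another metastatic site than the title for 12 of the 18 libraries and were not used. Each line carried an inducible control hairpin (shCtrl) or 1 inducible hairpin against WDR5 (shWDR5), and both arms received doxycycline at 1 μg/mL for 3 days, so hairpin expression and doxycycline exposure are shared by all 6 groups. RNA was sequenced from 3 biological replicates per group taken at different passages, 18 libraries in all, and levels are given as CPM, each gene's counts relative to the library total after TMM scaling.

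The mitochondrial ribosome translates the few messages that mitochondrial DNA encodes, all of them for membrane subunits of the respiratory chain and ATP synthase. Its ribosomal RNAs are transcribed inside the organelle, whereas its proteins are encoded in the nucleus, made on cytoplasmic ribosomes and imported. Some of these proteins have a counterpart in bacterial ribosomes, and others are found only in mitochondria. WDR5 is a WD40-repeat scaffold of histone methyltransferase complexes.

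Of the 78 genes, 51 encode proteins of the large subunit and 26 of the small subunit. In the large subunit 30 proteins have a bacterial counterpart and 21 are specific to mitochondria. In the small subunit these numbers are 16 and 10. MRPS30 and MRPS18A encode large subunit proteins despite their symbols. MRPS36 encodes a protein of the 2-oxoglutarate dehydrogenase complex and was kept because the symbol rule takes it. The genes lie on 21 chromosomes, with 8 each on chromosomes 1, 2 and 17 and fewer on each of the others. In 17 of the 78 (21.8%) a protein-coding gene on the other strand starts at most 1000 bases upstream, against 8.88% of 19869 protein-coding genes. Starts less than 100 bases downstream were included in these head-to-head pairs, and starts further downstream were not. The pairs include MRPS11 with MRPL46, MRPL49 with the cytoplasmic ribosomal protein gene FAU, MRPS12 with the seryl-tRNA synthetase gene SARS2, and MRPL47 with NDUFB5, a subunit of respiratory complex I.

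Promoters of these genes, taken from 250 bases before to 50 bases after the start, held an ETS or a YY1 letter motif at a higher share than the promoters of tested genes. RefSeq promoters (GRCh38.p14) were matched for 69 of the 78 genes. MRPL2, MRPL10, MRPL13, MRPL15, MRPL21, MRPL23, MRPL35, MRPS28 and MRPS36 were not matched. The ETS motif CCGGAAG, the core that ETS family factors such as GABP bind, was found on either strand in 29 of 69 promoters (42.0%), against 20.3% of 9240 promoters of tested genes and 10.7% of all 27305 promoters. The YY1 motif AAGATGGC, bound by the zinc finger factor YY1, was found in 20 of 69 (29.0%), against 5.73% of tested genes and 3.03% of all promoters. At least 1 of these motifs was present in 41 promoters and both were present in 8. Of the 63 matched promoters of cytoplasmic ribosomal protein genes, 33.3% held the ETS motif and 11.1% the YY1 motif. The NRF1 motif GCGCATGC, named after a regulator of nuclear genes for mitochondria, was present in 6 of the 69 (8.70%), against 5.65% of tested genes. The SP1 motif GGGCGG, the E-box CACGTG bound by MYC and its relatives, and the CCAAT box CCAAT had lower shares than in tested genes, at 60.9% against 71.0%, 8.70% against 10.2% and 29.0% against 37.0%. The median GC content of these promoters was 60.3%, against 65.3% for tested genes, and 58.3% for all promoters. None of the 6 motifs contains another, but matches can overlap at their ends, since an ETS motif ends in the letters that open a YY1 motif.

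**Figure D1:**
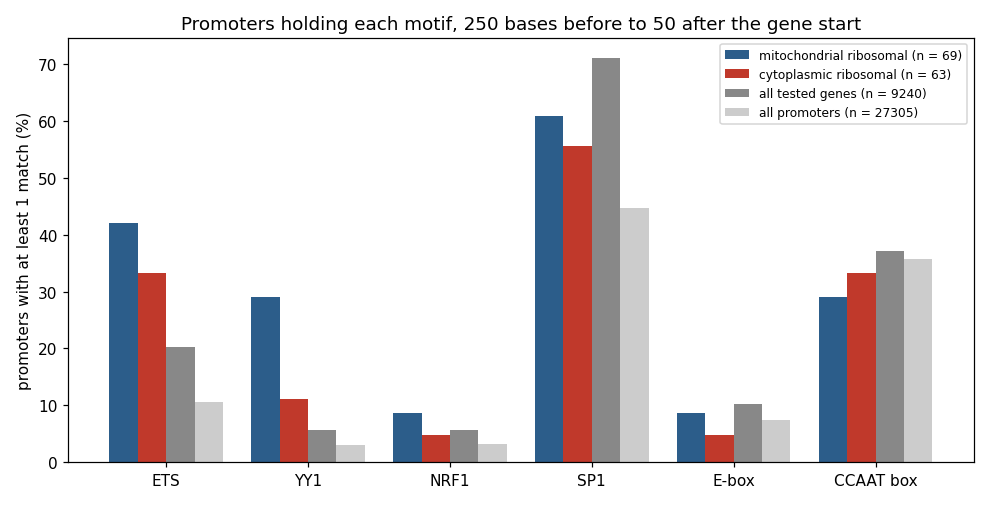
Bars give the percent of promoters with at least 1 match to each motif on either strand (y axis, percent) for 69 mitochondrial and 63 cytoplasmic ribosomal protein genes, 9240 tested genes and all 27305 promoters. The mitochondrial bars stand above the others for ETS (42.0%) and YY1 (29.0%) and below the tested genes for SP1, the E-box and the CCAAT box.

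Promoters of 4 genes named in the knockdown results below are printed 5′ to 3′ on the strand of the gene, with motif letters on either strand in capitals. MRPS17 (chr7:55951627-55951926, plus strand) and MRPL45 (chr17:38296918-38297217, plus strand) were lower after knockdown on average over the lines. MRPL27 (chr17:50373135-50373434, minus strand) and MRPS18B (chr6:30617590-30617889, plus strand) were higher.
MRPS17: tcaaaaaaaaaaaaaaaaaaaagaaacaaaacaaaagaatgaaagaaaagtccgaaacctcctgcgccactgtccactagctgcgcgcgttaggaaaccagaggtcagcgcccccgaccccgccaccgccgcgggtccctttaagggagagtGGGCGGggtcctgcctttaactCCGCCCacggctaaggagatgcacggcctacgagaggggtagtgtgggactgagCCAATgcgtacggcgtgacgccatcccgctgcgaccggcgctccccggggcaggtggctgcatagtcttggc
MRPL45: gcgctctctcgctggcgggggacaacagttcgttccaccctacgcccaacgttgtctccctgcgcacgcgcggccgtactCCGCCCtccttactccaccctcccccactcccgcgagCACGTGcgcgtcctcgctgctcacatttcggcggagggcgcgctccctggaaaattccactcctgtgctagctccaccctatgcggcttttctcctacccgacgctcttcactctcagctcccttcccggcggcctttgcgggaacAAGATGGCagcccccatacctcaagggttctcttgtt
MRPL27: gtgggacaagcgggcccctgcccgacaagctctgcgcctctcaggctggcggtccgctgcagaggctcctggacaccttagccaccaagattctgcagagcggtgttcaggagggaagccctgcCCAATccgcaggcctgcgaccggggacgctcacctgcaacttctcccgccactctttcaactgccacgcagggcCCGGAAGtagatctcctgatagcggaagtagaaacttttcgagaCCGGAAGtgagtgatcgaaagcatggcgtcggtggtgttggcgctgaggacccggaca
MRPS18B: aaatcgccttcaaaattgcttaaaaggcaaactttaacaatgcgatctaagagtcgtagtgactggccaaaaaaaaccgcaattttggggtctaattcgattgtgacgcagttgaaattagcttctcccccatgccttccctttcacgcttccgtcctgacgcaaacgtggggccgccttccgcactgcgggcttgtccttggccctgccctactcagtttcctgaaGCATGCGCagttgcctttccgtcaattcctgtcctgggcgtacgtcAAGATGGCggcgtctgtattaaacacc
In MRPS17 the capitals mark 2 SP1 motifs and 1 CCAAT box, and in MRPL45 1 SP1 motif, 1 E-box and 1 YY1 motif. In MRPL27 they mark 1 CCAAT box and 2 ETS motifs, and in MRPS18B 1 NRF1 motif and 1 YY1 motif. Among these 4, a CCAAT box and a YY1 motif each occurred in 1 promoter of the lower and 1 of the higher genes. The same selection also took MRPL11, which was lower and held 0 of the motifs. It took MRPL48 as well, which was higher and held 1 ETS motif, and these promoters are not printed. A letter match is a description of the sequence and not a binding site.

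The libraries held 17485841 to 119667013 counts. WDR5 was lower in each shWDR5 library than in any shCtrl library. In LM2 it measured 112, 127 and 134 CPM with shCtrl and 24.2, 24.3 and 20.4 CPM with shWDR5. In BrM3 it measured 85.1, 92.9 and 79.1 CPM against 20.7, 21.2 and 23.4 CPM, and in BoM 87.1, 90.1 and 90.02 CPM against 13.9, 21.0 and 22.0 CPM. By edgeR's quasi-likelihood test with Benjamini-Hochberg adjustment over 12081 tested genes, WDR5 fell by 2.43 ± 0.14 (SE) on the log2 scale in LM2, by 1.97 ± 0.14 in BrM3 and by 2.24 ± 0.14 in BoM, with adjusted p-values of 1.77e-08, 4.20e-07 and 6.23e-08. In bulk RNA, fewer cells that express a gene and less RNA per cell cannot be told apart. Of 10 marker genes, the mesenchymal VIM averaged 1680 CPM over the shCtrl libraries, whereas CDH1, which encodes E-cadherin, and the hormone receptor genes ESR1 and PGR averaged 0.243, 0.247 and 0.177 CPM and were not tested. The epithelial adhesion gene EPCAM fell by 0.60 ± 0.072 (SE) on the log2 scale on average over the lines (adjusted p = 7.98e-06, edgeR with Benjamini-Hochberg adjustment), the keratin genes KRT19 and KRT8 were also called lower, KRT18 and VIM were called higher, and CD44 and FN1 were not called. Whether these shifts have a part in any result on mitochondrial ribosomal protein genes was not tested.

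Levels in the shCtrl libraries were compared per length, as CPM per kilobase of the canonical transcript that GENCODE release 44 gives for each gene. The 5 highest genes were MRPL51 (147 CPM per kilobase, mean of 9 libraries), MRPL33 (143), MRPL14 (135), MRPL27 (110) and MRPL24 (108), all of the large subunit. Their ranges over the 9 libraries overlapped, with MRPL51 at 124 to 185 and MRPL24 at 92.8 to 120 CPM per kilobase, so their order is within the spread between libraries. The 5 lowest were MRPL46 (2.82 CPM per kilobase), MRPS24 (1.81), MRPL12 (1.798), MRPL38 (1.10) and MRPL53 (0.0274). MRPL53 had 0 or 1 read in each of the 18 libraries.

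The low end of this ranking matched the overlap of gene models. In that annotation (hg38), over 50% of the canonical transcript of 6 genes lies on exons that another gene holds on the same strand. These were MRPL53 (99.2%, CCDC142), MRPL38 (94.3%), MRPS24 (90.9%, the read-through gene URGCP-MRPS24), MRPL46 (73.4%), MRPL12 (69.5%) and MRPS28 (56.2%), and all 6 were among the 7 genes of lowest level. The remaining gene of those 7 was MRPS17, with 29.4% of its transcript shared with NIPSNAP2 and a read-through gene. MRPS6, MRPL19 and MRPL30 shared 33.1%, 22.3% and 12.7% on the same strand and were not among those 7. The study's methods name STAR at its default settings for the counting and another annotation release than the one used here for overlaps. Beyond that the treatment of reads on shared exons is not given in the sources used here, and the levels of these 7 genes are uncertain. MRPS18C and MRPS18A have 83.6% and 60.6% of their transcript opposite exons of ABRAXAS1 and RSPH9, and although the library kit keeps strand, the strand setting of the counting is not given in the sources used here. Of the 78 genes, 75 passed the filter on low counts and were tested, and MRPL53, MRPS24 and MRPL38 were not.

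**Figure D2:**
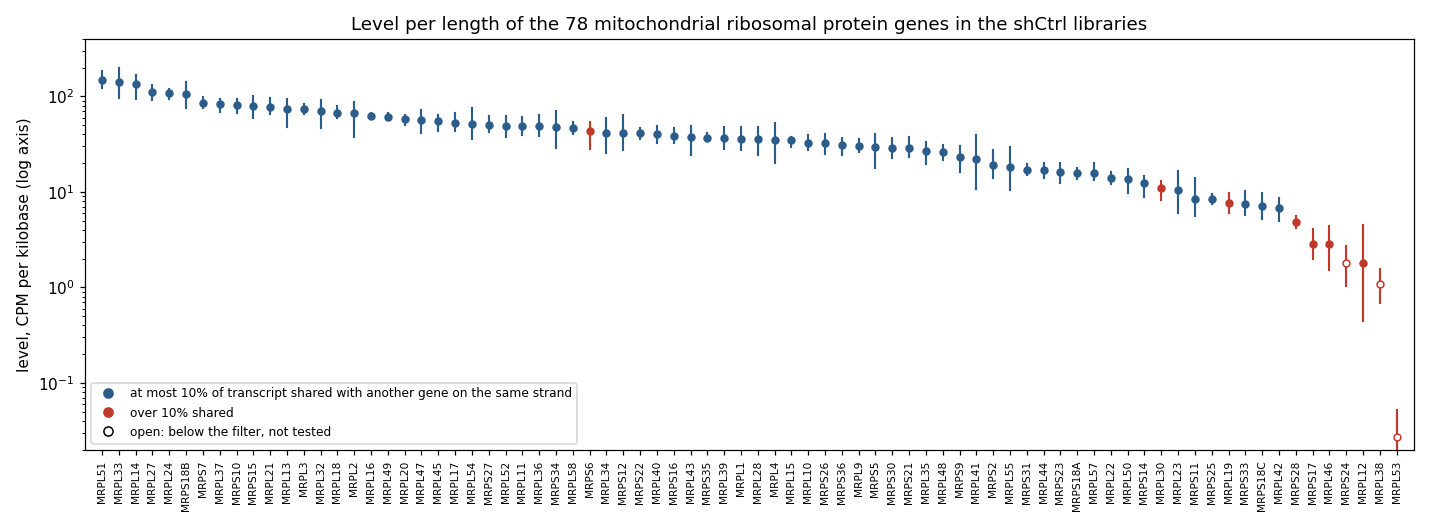
Points give the mean level of each of the 78 genes over the 9 shCtrl libraries (y axis, CPM per kilobase, log axis) and lines the lowest and highest library, with genes ordered by level. Genes in red share over 10% of their transcript with another gene on the same strand. They fill the low end from MRPS28 (4.86 CPM per kilobase) down to MRPL53, whose line is drawn to the lower edge because some libraries held no read. MRPS6, MRPL19 and MRPL30 are also red and lie above that end.

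The sum over all 78 genes overlapped between the arms of each line. In LM2 it was 3955 ± 185 CPM (SD, n = 3) with shCtrl and 4077 ± 239 CPM with shWDR5. In BrM3 it was 4522 ± 135 and 4857 ± 190 CPM, and in BoM 4757 ± 233 and 5063 ± 753 CPM. In BrM3 the lowest shWDR5 library, at 4644 CPM, lay just below the highest shCtrl library, at 4672 CPM, and in BoM the shWDR5 libraries ran from 4258 to 5751 CPM. The large subunit genes summed to 1.85 to 2.13 times the small subunit genes in the 18 libraries.

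Within a line, few of these genes were called after WDR5 knockdown by the main test, and the number of higher calls depended on the test. In LM2 0 of 75 were called at an adjusted p under 0.05 by edgeR's quasi-likelihood test with Benjamini-Hochberg adjustment, where 6.26% of all tested genes were called, 4.78% lower and 1.48% higher. At an unadjusted p under 0.05 there were 5, and DESeq2 called 1, MRPS5. In BrM3 3 were called higher and 0 lower, where 10.7% of all tested genes were called, 7.87% lower and 2.87% higher. In BoM 1 was called lower and 0 higher, where 16.1% of all tested genes were called, 10.7% lower and 5.41% higher. At an unadjusted p under 0.05 there were 8 in BrM3 and 9 in BoM. The shares of all tested genes at that unadjusted threshold are not given here. They are at least 6.26% in LM2, 10.7% in BrM3 and 16.1% in BoM, since adjustment never lowers a p. DESeq2 called 5 higher in BrM3, and in BoM 5 higher and 1 lower. With a correction for GC content 3, 6 and 9 were called higher in LM2, BrM3 and BoM. The shares of all tested genes called by DESeq2 and with this correction are not given here. Whether these counts exceed a shift of all tested genes was not tested. With median-of-ratios scaling the calls over all tested genes shifted to the higher side, from 577 lower and 179 higher to 461 and 263 in LM2, from 951 and 347 to 747 and 657 in BrM3, and from 1293 and 653 to 1088 and 921 in BoM. The calls among the 75 genes then numbered 0 in LM2, 3 higher in BrM3, and 1 lower and 2 higher in BoM. The 75 genes had median log2 fold changes of 0.03 for LM2, 0.05 for BrM3 and 0.04 for BoM, against 0.00, -0.01 and 0.02 over all tested genes. For 74 of the 75 genes in LM2 and 73 in BrM3 and BoM, the 95% interval of the log2 fold change lay within 1 unit of 0, and the median distance from the estimate to either bound was 0.27 in each line. MRPL12, with 9 to 395 reads per library, had the widest interval in each line, from -2.51 to 0.88 in BoM.

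In BrM3 the 3 genes called higher were MRPL27, MRPS18B and MRPS5. MRPL27, the counterpart of a bacterial protein beside the peptidyl transferase centre, measured 72.2, 76.0 and 63.4 CPM with shCtrl and 83.8, 99.1 and 101 CPM with shWDR5. The groups did not overlap, and the log2 fold change was 0.43 ± 0.13 (SE), adjusted p = 0.0417. MRPS18B, a mitochondria-specific small subunit protein, measured 152, 148 and 135 CPM against 155, 203 and 210 CPM. Its lowest shWDR5 library lay just above its highest shCtrl library, with a log2 fold change of 0.39 ± 0.11 (SE) and an adjusted p of 0.0294. MRPS5, the counterpart of a bacterial protein at the entry of the message into the small subunit, was even across shCtrl libraries, at 105, 105 and 105 CPM, and measured 129, 127 and 136 CPM with shWDR5. Its log2 fold change was 0.32 ± 0.082 (SE), adjusted p = 0.0190, each by edgeR with Benjamini-Hochberg adjustment. These calls rest on 5 of the 6 BrM3 libraries: 0 genes were called when any of the 3 shCtrl libraries or shWDR5 replicate 3 was left out and 1 without shWDR5 replicate 2, whereas 3 were called without shWDR5 replicate 1. Of the 18 fits without 1 library, 9 called MRPL27, 13 MRPS18B and 14 MRPS5, so the call of MRPL27 also depended on libraries of the other lines.

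In BoM the gene called lower was MRPS17, the counterpart of a bacterial protein that binds the small subunit RNA early in assembly. It measured 5.83, 6.22 and 7.32 CPM with shCtrl and 3.93, 4.78 and 4.44 CPM with shWDR5. The groups did not overlap, and the log2 fold change was -0.55 ± 0.14 (SE) with an adjusted p of 0.0107 by edgeR with Benjamini-Hochberg adjustment. The adjusted p was 0.0905 without the filter on low counts and 0.0763 when the BoM libraries were fitted alone. In LM2 MRPS17 measured 5.50, 5.27 and 4.32 CPM against 3.76, 4.01 and 3.70 CPM, and in BrM3 3.82, 3.58 and 3.89 CPM against 3.07, 3.14 and 2.61 CPM. In both lines the shWDR5 libraries were below all shCtrl libraries, but the adjusted p was 0.109 in LM2 and 0.111 in BrM3. With 54 to 533 reads per library and a transcript partly shared with NIPSNAP2, MRPS17 was among the genes with the fewest reads. In BoM the deviations of all 3 same-numbered pairs of libraries correlated over 0.1 across all tested genes. The weakest was replicate 3 at 0.145, and across the mitochondrial genes that pair correlated at -0.115. With the replicate number as a block 2 genes were called lower in BoM, MRPS17 and MRPL11, and 6 higher, MRPL18, MRPL27, MRPL3, MRPL32, MRPL42 and MRPL48. The block raised the calls over all tested genes in BoM to 1814 lower and 1358 higher. BoM shWDR5 replicate 1 decided the count of higher calls in that line: without it 10 genes were called higher, and without BrM3 shWDR5 replicate 1 the count in BoM was 3.

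Arms that did not overlap were counted as well, whatever the p. In LM2 7 of 75 were lower in all 3 shWDR5 libraries and 5 higher, where 14.6% and 10.7% of all tested genes were. In BrM3 these numbers were 7 and 17, where 19.7% and 15.8% of all tested genes were lower and higher. In BoM they were 2 and 3, where the shares of all tested genes were 17.3% and 12.8%.

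**Figure D3:**
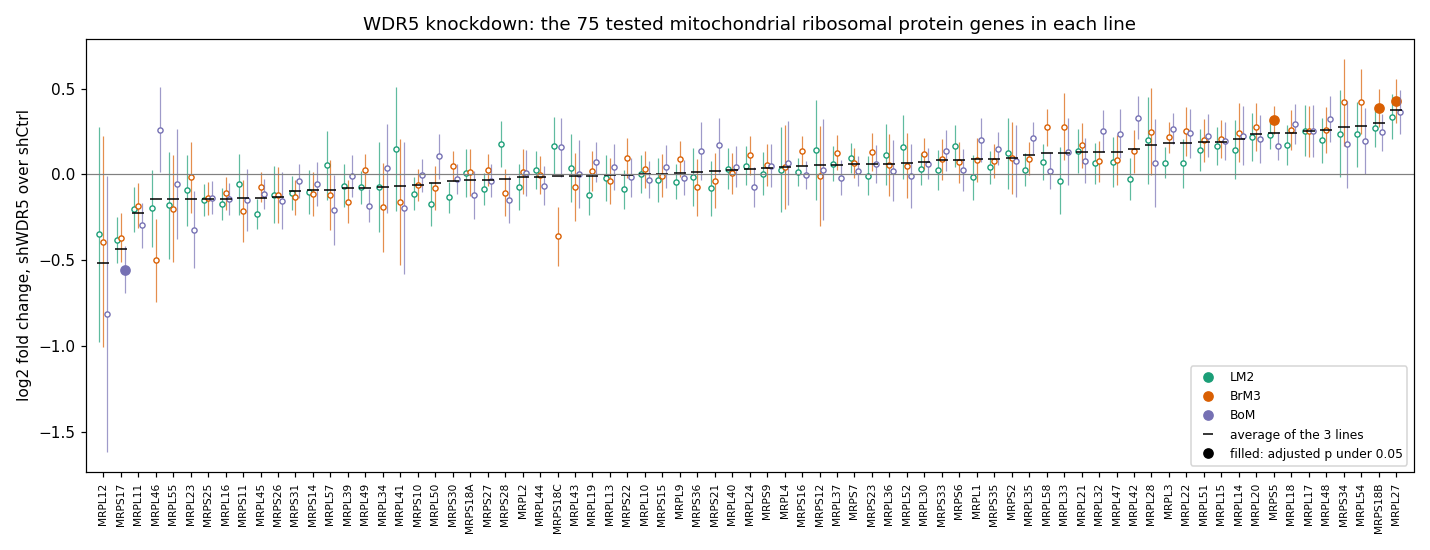
Each point is the log2 fold change of shWDR5 over shCtrl (y axis) of 1 gene in 1 line with its standard error, for the 75 tested genes ordered by their average over the lines (black dashes). Filled points have an adjusted p under 0.05: MRPS17 in BoM on the lower side, and MRPS5, MRPS18B and MRPL27 in BrM3 on the higher side.

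Averaged over the 3 lines, 3 of the 75 genes were called lower and 10 higher, where 35.4% of all tested genes were called, 19.9% lower and 15.6% higher. With median-of-ratios scaling in the same edgeR test the split was 1 lower and 15 higher, and the split of all tested genes moved from 2400 lower and 1880 higher to 1954 lower and 2844 higher. The lower genes were MRPS17, MRPL11 and MRPL45. The higher genes were MRPL27, MRPS18B, MRPL48, MRPL17, MRPL18, MRPS5, MRPL20, MRPL15, MRPL51 and MRPL3. Of the 30 large subunit proteins with a bacterial counterpart, 6 were called higher and 1 lower, and of the 19 tested mitochondria-specific ones 2 were called higher and 1 lower. In the small subunit 1 of 15 with a counterpart was called higher and 1 lower, and 1 of 10 mitochondria-specific ones was called higher. The counts moved with single libraries. Without BoM shWDR5 replicate 1 there were 19 higher calls, and 6 without BoM shWDR5 replicate 3, LM2 shCtrl replicate 2 or LM2 shWDR5 replicate 3. There was 1 lower call, MRPS17, without BoM shCtrl replicate 2, BrM3 shCtrl replicate 2 or LM2 shCtrl replicate 3, and there were 5 without BoM shWDR5 replicate 3.

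MRPS17 fell by 26.0% on average (log2 fold change -0.43 ± 0.080, SE, adjusted p = 4.54e-04, edgeR with Benjamini-Hochberg adjustment) and was lower in 9 of 9 shWDR5 libraries than the shCtrl libraries of the same line. MRPL11, the counterpart of the bacterial protein at the base of the stalk where elongation factors act, measured 65.0, 63.6 and 70.7 CPM with shCtrl and 57.3, 52.7 and 63.3 CPM with shWDR5 in LM2. In BrM3 it measured 75.3, 82.8 and 77.6 against 59.4, 73.9 and 74.1 CPM, and in BoM 80.9, 98.5 and 95.7 against 58.5, 77.96 and 87.7 CPM. The groups overlapped in BoM and not in LM2 or BrM3, and MRPL11 fell by 14.6% on average (log2 fold change -0.23 ± 0.076, SE, adjusted p = 0.0270 by edgeR). With DESeq2 its adjusted p was 0.0725 and with median-of-ratios scaling 0.0816.

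MRPL45, which lies near the exit of the nascent chain and links the ribosome to the inner membrane, showed a smaller shift. It measured 82.2, 67.5 and 73.9 CPM with shCtrl and 66.1, 60.1 and 63.9 CPM with shWDR5 in LM2, and 88.1, 87.6 and 88.1 against 83.6, 82.9 and 84.7 CPM in BrM3. In BoM it measured 97.0, 95.4 and 99.9 against 78.7, 95.3 and 95.9 CPM, where the groups overlapped. MRPL45 fell by 9.22% on average (log2 fold change -0.14 ± 0.051, SE, adjusted p = 0.0408 by edgeR), and its adjusted p was 0.227 with median-of-ratios scaling, 0.222 with DESeq2 and 0.409 without the filter. Of 18 fits, each without 1 library, 5 called it.

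MRPL27 had the largest rise on average, 29.8% (log2 fold change 0.38 ± 0.074, SE, adjusted p = 8.45e-04, edgeR with Benjamini-Hochberg adjustment). In LM2 it measured 71.9, 69.4 and 70.5 CPM with shCtrl and 100, 90.1 and 77.2 CPM with shWDR5, and in BoM 83.8, 90.6 and 84.5 against 92.6, 104 and 137 CPM. The groups did not overlap in any of the 3 lines. MRPS18B rose by 23.2% (0.30 ± 0.063 on the log2 scale, adjusted p = 0.00129) and MRPS5 by 18.01% (0.24 ± 0.048, adjusted p = 9.23e-04). MRPS18B did not overlap in any line, at 115, 107 and 110 against 149, 130 and 121 CPM in LM2 and 190, 196 and 186 against 204, 243 and 230 CPM in BoM. MRPS5 overlapped in BoM alone, at 120, 135 and 132 against 131, 162 and 141 CPM.

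MRPL48, a mitochondria-specific protein, rose by 19.8% on average (0.26 ± 0.077 on the log2 scale, SE, adjusted p = 0.0145, edgeR). MRPL17 and MRPL18, both with bacterial counterparts, rose by 19.2% (0.25 ± 0.086, adjusted p = 0.0305) and 18.3% (0.24 ± 0.068, adjusted p = 0.0107). MRPL17 overlapped between arms in each line, with 99.5, 106 and 124 CPM against 122, 121 and 151 CPM in LM2. MRPL18 and MRPL48 overlapped in LM2 and BoM and were separate in BrM3, where MRPL48 measured 38.9, 37.6 and 40.2 against 47.8, 45.0 and 46.9 CPM. MRPL27, MRPS18B, MRPL48 and MRPL18 were called in each of the 18 fits without 1 library, and MRPL17 in 9 of those.

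The responses of the 75 genes were then set side by side across the lines. In all 3 lines 14 were lower and 30 higher (58.7%), whatever their p. Over all tested genes 33.5% were lower and 35% higher in all 3 lines, and of 78 cytoplasmic ribosomal protein genes 98.7% kept a sign. Across the 75 genes the log2 fold changes of LM2 and BrM3 had a Pearson correlation of 0.72, those of LM2 and BoM 0.63 and those of BrM3 and BoM 0.62, against 0.72, 0.69 and 0.81 across all tested genes and 0.97, 0.97 and 0.97 across the cytoplasmic ribosomal protein genes. The points of each correlation are genes of 1 fit with a shared scaling and are not independent replicates.

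The genes of the cytoplasmic ribosome, which translates all nuclear-encoded messages, were measured in the same libraries. In the averaged comparison 41 of 78 were called lower and 25 higher, with log2 fold changes from -1.42 to 0.54, whereas the mitochondrial genes ranged from -0.52 to 0.38. The lower end of the mitochondrial range is MRPL12, a gene of few reads that was not called, and the lowest called gene was MRPS17 at -0.43. In all 3 lines separately, 26 cytoplasmic genes were called lower and 2 higher, and 0 mitochondrial genes were called in all 3 lines in either direction (3.25% and 0.753% of all tested genes were). As a share of the summed level of the cytoplasmic genes, the mitochondrial genes made up 7.70% ± 0.253 (SD, n = 3) in LM2 with shCtrl and 8.73% ± 0.0845 with shWDR5, and the arms did not overlap. In BrM3 and BoM the lowest shWDR5 shares were 9.19% and 8.87%, against highest shCtrl shares of 9.05% and 9.19%, so that the arms overlapped in BoM and not in BrM3. The summed level of the cytoplasmic genes was 51416.5 ± 2658 CPM with shCtrl and 46725 ± 3197 CPM with shWDR5 in LM2. In BrM3 it was 51324 ± 2516 and 50702 ± 5163 CPM, and in BoM 54165 ± 5452 and 53213 ± 11769 CPM. The arms overlapped in this sum in each line. No test was made of these shares or sums.

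**Figure D4:**
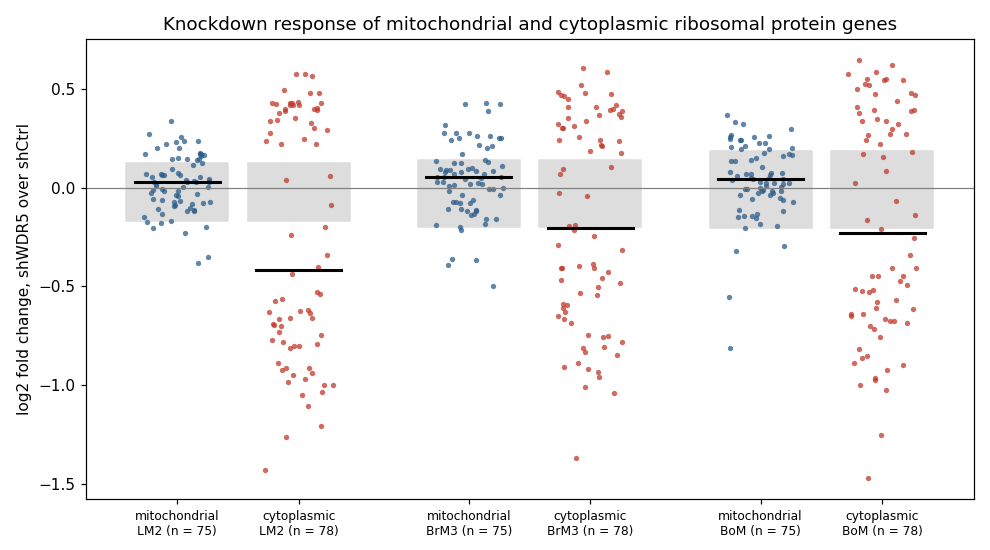
Points are log2 fold changes of shWDR5 over shCtrl (y axis) of 75 mitochondrial (blue) and 78 cytoplasmic (red) ribosomal protein genes in each line, black bars are medians, and grey bands span the middle 50% of all tested genes. The mitochondrial points lie around 0 within 0.81 units, and the cytoplasmic points form a lower and a higher group reaching below -1.

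No mitochondrial ribosomal protein gene was called for a difference of the knockdown response between lines by edgeR with Benjamini-Hochberg adjustment. At an unadjusted p under 0.05 the contrast of BrM3 with LM2 held 1 gene, that of BoM with LM2 held 0 and that of BoM with BrM3 held 2, and DESeq2 called 0 in each. Of all 12081 tested genes edgeR called 1, 0 and 1 (0.00828%, 0% and 0.00828%) after adjustment. The shares of all tested genes at an unadjusted p under 0.05 are not given here. The gene with the smallest p was MRPS18C between BrM3 and LM2, at -0.53 ± 0.24 (SE) on the log2 scale with a 95% interval from -1.03 to -0.02. Between BoM and LM2 it was MRPL42, at 0.36 ± 0.18 (interval -0.01 to 0.73), and between BoM and BrM3 MRPL46, at 0.76 ± 0.35 (interval 0.03 to 1.49). These comparisons between line pairs share libraries and are not independent of each other. The median distance from the estimate to either interval bound was 0.38 for each pair of lines. These intervals are not adjusted for the 12081 tests, so differences larger than this can also go uncalled, as those of MRPS18C and MRPL46 did.

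The 3 paralogs MRPS18A, MRPS18B and MRPS18C did not move together. MRPS18B alone was called on average, while MRPS18A, in the large subunit, had a log2 fold change of -0.03 ± 0.081 (SE) and MRPS18C, the paralog with the bacterial position, of -0.01 ± 0.098. In BrM3 MRPS18C measured 11.8, 12.3 and 10.996 CPM with shCtrl and 8.34, 9.89 and 9.01 CPM with shWDR5, without overlap, but its adjusted p was 0.201. In LM2 it measured 15.1, 12.97 and 9.71 against 12.7, 14.2 and 15.4 CPM, where the arms overlapped. Per length, MRPS18B was the most abundant paralog at 106 CPM per kilobase, against 15.8 for MRPS18A and 7.10 for MRPS18C.

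Other genes of mitochondrial translation were counted over lists of known factors, to be read against the 19.9% of all tested genes called lower and 15.6% called higher on average. Of 5 mitochondrial ribosomal proteins with other symbols, DAP3 and PTCD3 were called higher on average and 0 lower. DAP3, a GTP-binding small subunit protein, measured 175, 179 and 183 CPM with shCtrl and 215, 223 and 230 CPM with shWDR5 in BrM3. It rose by 20.9% on average (0.27 ± 0.053 on the log2 scale, SE, adjusted p = 7.19e-04, edgeR). Of 24 tested assembly factors 4 were called lower and 0 higher, led by the ribosomal RNA methyltransferase gene MRM1 (-0.38 ± 0.10, adjusted p = 0.00756) and the helicase gene DDX28 (-0.37 ± 0.089, adjusted p = 0.00406). Of 13 tested translation factors and message-binding proteins 4 were called higher and 2 lower. The peptide release factor gene MTRF1 fell by 27.0% (adjusted p = 0.00144) and SLIRP, which binds mitochondrial messages, rose by 27.1% (adjusted p = 0.0153). Of 5 mitochondrial transcription factors TFAM, which packages mitochondrial DNA, was called higher (0.16 ± 0.057, adjusted p = 0.0417) and 0 were lower.

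The RNAs that mitochondrial DNA encodes divided into ribosomal and messenger RNAs. Of 15, the 2 ribosomal RNAs MT-RNR1 and MT-RNR2 were called higher on average by edgeR, whereas of the 13 messenger RNAs 0 were called and 0 had an unadjusted p under 0.05. MT-RNR2, the large subunit RNA, rose on the log2 scale by 0.40 ± 0.095 (SE) in LM2, 0.53 ± 0.095 in BrM3 and 0.64 ± 0.095 in BoM, with adjusted p-values of 0.0179, 0.00189 and 2.46e-04. Both ribosomal RNAs summed to 5108 ± 405 CPM (SD, n = 3) with shCtrl and 6686 ± 491 CPM with shWDR5 in LM2, and the arms did not overlap in any line. MT-RNR1 in BoM measured 618, 748 and 842 CPM with shCtrl and 939, 1025 and 2207 CPM with shWDR5, with replicate 3 far above the other two. The library kit was made for messenger RNA, and any difference between arms in how it recovered ribosomal RNA was not tested.

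The lines themselves were compared in their shCtrl libraries. The 3 comparisons of shCtrl libraries share groups and are given side by side. Between BrM3 and LM2 20 of 75 genes were higher in BrM3 and 4 lower, where 47.6% of all tested genes were called, 24.2% higher and 23.4% lower. Between BoM and LM2 32 were higher in BoM and 9 lower, where 51.8% of all tested genes were called, 25.9% higher and 25.8% lower. Between BoM and BrM3 9 were higher in BoM and 4 lower, where 37.6% were called, 17.8% higher and 19.8% lower. The balance of this last comparison depended on the fit: DESeq2, the GC correction, the replicate block and the fit without the filter on low counts each called 10 lower, against 9, 13, 10 and 5 higher. The shares of all tested genes called in those fits are not given here. The median log2 difference of the 75 genes was 0.15, 0.19 and 0.06, against 0.01, -0.01 and 0.00 over all tested genes. Higher calls in BrM3 numbered 13 without BrM3 shCtrl replicate 2 and 10 without LM2 shCtrl replicate 2, and lower calls in BoM against BrM3 numbered 7 without BoM shWDR5 replicate 1 and 8 without LM2 shWDR5 replicate 3.

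Libraries of 2 lines that did not overlap, whatever the p, were also counted. BrM3 lay above LM2 in 30 of the 75 genes and below it in 8, where 30.2% and 28.6% of all tested genes did. BoM lay above LM2 in 38 and below it in 8, where the shares of all tested genes were 29.3% and 26.9%. BoM lay above BrM3 in 23 and below it in 12, where these shares were 27.2% and 27.3%. LM2 had the lowest mean of the 3 lines in 41 of the 75 genes (54.7%), against 37.0% of all tested genes. In 23 of the 75 (30.7%) each LM2 shCtrl library lay below all shCtrl libraries of both other lines, where 19.5% of all tested genes did, and in 3 (4%) each lay above, where 17.4% did. The 23 genes include MRPL2, MRPL13, MRPL32, MRPS5, MRPS6, MRPS9 and MRPS18B, and the 3 are MRPS11, MRPS16 and MRPL54. Of the 30 large subunit proteins with a bacterial counterpart, 9 were called higher in BrM3 than in LM2 and 0 lower, and 13 were called higher in BoM than in LM2 and 1 lower. Of the 15 tested small subunit proteins with a counterpart, 4 were called higher and 3 lower in BrM3, and 8 higher and 4 lower in BoM.

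MRPS5 measured 62.4, 58.0 and 63.5 CPM in LM2, 105, 105 and 105 CPM in BrM3 and 120, 135 and 132 CPM in BoM. The 3 lines did not overlap, and the log2 difference from LM2 was 0.78 ± 0.083 (SE) in BrM3 (adjusted p = 6.67e-07, edgeR) and 1.07 ± 0.083 in BoM (adjusted p = 1.31e-08). MRPL2, whose bacterial counterpart lies at the peptidyl transferase centre, measured 46.0, 53.4 and 58.8 CPM in LM2, 88.1, 105 and 86.9 CPM in BrM3 and 87.8, 106 and 92.8 CPM in BoM. BrM3 and BoM overlapped, and the differences from LM2 were 0.82 ± 0.13 (adjusted p = 7.79e-05) and 0.86 ± 0.13 (adjusted p = 4.47e-05). MRPS9 was 0.77 ± 0.12 higher in BrM3 than in LM2 (adjusted p = 7.59e-05), at 41.4, 42.7 and 39.9 against 25.3, 22.8 and 24.7 CPM, and MRPS18B was 0.78 ± 0.11 higher in BoM than in LM2 (adjusted p = 1.25e-05).

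The head-to-head pair MRPS11 and MRPL46 on chromosome 15 held the lowest called values of BoM against LM2. MRPS11 (88467453 to 88480776, plus strand), the counterpart of a protein of the small subunit platform, measured 36.7, 40.3 and 47.2 CPM in LM2, 23.1, 24.99 and 23.6 CPM in BrM3 and 20.7, 22.0 and 18.9 CPM in BoM. The lines did not overlap, and MRPS11 fell by 0.80 ± 0.18 (SE) on the log2 scale in BrM3 (adjusted p = 0.00131, edgeR) and by 1.01 ± 0.18 in BoM (adjusted p = 1.48e-04). MRPL46 (88459477 to 88467390, minus strand), a mitochondria-specific large subunit protein, measured 3.09, 3.56 and 4.29 CPM in LM2, 2.40, 3.30 and 2.83 CPM in BrM3 and 1.92, 2.11 and 1.504 CPM in BoM. It fell by 0.98 ± 0.24 in BoM (adjusted p = 0.00229), while its value in BrM3 was -0.38 ± 0.22 (adjusted p = 0.178), and LM2 and BrM3 overlapped. MRPL46 shares most of its transcript with another gene on the same strand, so its level is uncertain.

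MRPL54 and MRPS16 were lower in BrM3 than in LM2. MRPL54 fell by 0.59 ± 0.19 (SE) on the log2 scale (adjusted p = 0.0166) and MRPS16 by 0.42 ± 0.082 (adjusted p = 4.42e-04), both by edgeR and without overlap. MRPL41 fell by 0.97 ± 0.37 in BoM against LM2 (adjusted p = 0.0369), but its groups overlapped, at 7.17, 11.3 and 6.22 against 8.58, 16.9 and 22.7 CPM, and 14 of the 18 fits without 1 library called it.

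Between BoM and BrM3 MRPS17 and MRPL23 held the highest and lowest called values. MRPS17 was 0.77 ± 0.14 (SE) higher in BoM (adjusted p = 2.75e-04, edgeR). It was the lowest in BrM3 and the highest in BoM of the 3 lines, so that its level with shWDR5 in BoM, 4.38 ± 0.431 CPM (SD, n = 3), stood above its level with shCtrl in BrM3, 3.76 ± 0.162 CPM. MRPL23, the counterpart of a bacterial protein at the tunnel exit, measured 4.31, 5.39 and 4.01 CPM in BoM and 7.28, 11.1 and 8.88 CPM in BrM3, and fell by 0.98 ± 0.21 (adjusted p = 0.00182). MRPS33 and MRPS30 were 0.68 ± 0.12 (adjusted p = 2.66e-04) and 0.49 ± 0.088 (adjusted p = 3.58e-04) higher in BoM, and MRPL50 and MRPS14 fell by 0.57 ± 0.13 (adjusted p = 0.00245) and 0.47 ± 0.13 (adjusted p = 0.00786). None of these 6 genes overlapped between BoM and BrM3.

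**Figure D5:**
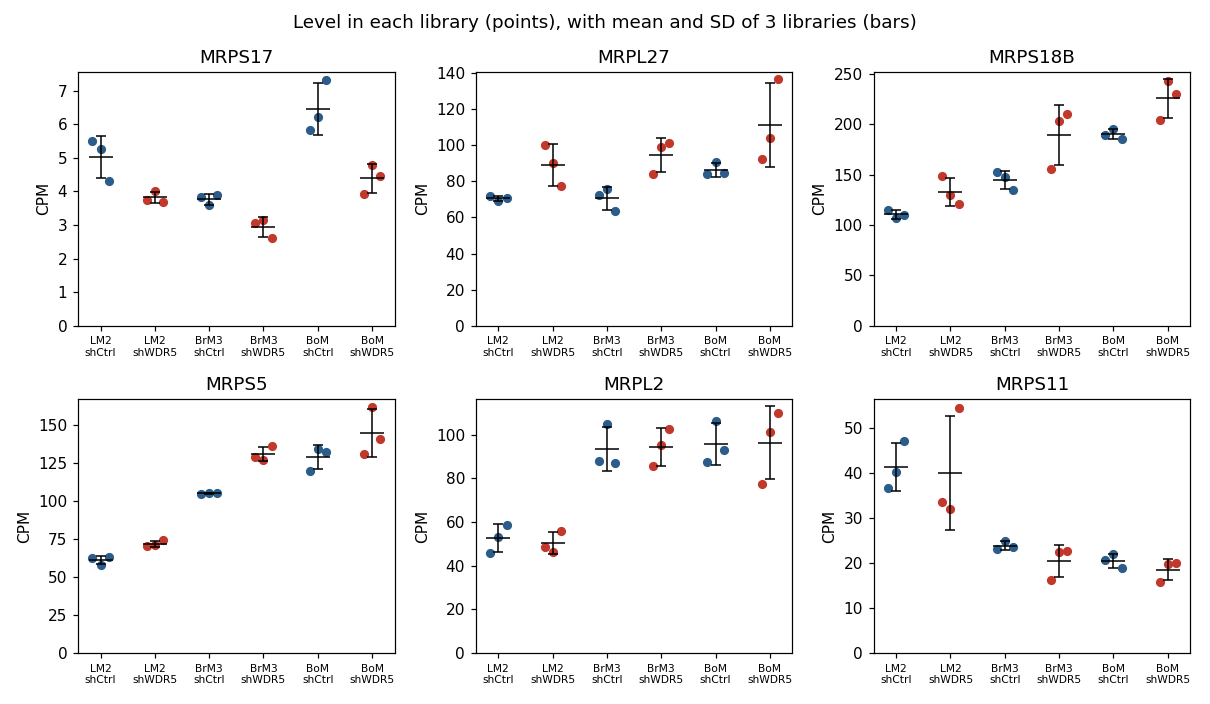
Each panel plots 1 gene in the 18 libraries, with CPM on the y axis from 0, shCtrl points in blue, shWDR5 points in red, and black bars for mean and SD of 3 libraries. MRPS5 and MRPL2 stand lower in LM2 than in BrM3 and BoM in both arms, MRPS11 stands higher, and MRPS17 has its shWDR5 points below its shCtrl points in each line.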

How the data were processed

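RNA was measured by stranded messenger RNA sequencing in 18 libraries, 6 groups of 3 replicates. The authors deposited 1 table of raw counts per gene for 58815 genes, and the submitters' processing notes name CASAVA 1.8.2, STAR 2.7.0 and hg38. Their file of fold changes and p-values was not used. The study added spike-in RNA in proportion to cell number and used it for normalization. With this scaling the study reported that global RNA levels did not change after 3 days of hairpin induction. The table of counts held 0 spike-in rows, so that scaling could not be repeated here. Depth was 17485841 to 119667013 counts per library, and the genes studied took 0.385% to 0.544% of it. The filter of the study's methods, HTSFilter's Jaccard criterion, was recomputed over 100 thresholds from 1 to 200 and kept 12081 genes with a scaled count above 145.7 in at least 1 library. Counts were fitted in edgeR 4.0.16 (R 4.3.3, limma 3.58.1) by quasi-likelihood with TMM scaling and 1 coefficient per group, leaving 12 residual degrees of freedom. Calls had a Benjamini-Hochberg adjusted p under 0.05, intervals were 95%, and the fit was tested on simulated data with 200 changed genes.

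Alternatives were DESeq2 1.42.0, median-of-ratios scaling, no filter, a replicate block, a GC correction, each line alone, each library left out and, added after the data were seen, TMM over all genes. Genes were named by rule: up to 3 called per direction within a line or between lines and up to 5 in the average, ranked by size of change, with the smallest p for each difference between lines, the 5 highest and 5 lowest levels, the MRPS18 paralogs, and up to 2 per pathway list. MRPL20, MRPL15, MRPL51 and MRPL3, and examples of genes lowest in LM2, were named after their values were seen. The genes and lists were chosen with earlier results of these data known. That replicates came from different passages is stated by the study's methods, so p-values measure the spread between passages. Deviations of same-numbered shCtrl and shWDR5 libraries from their group means correlated between -0.178 and 0.729 over all tested genes, and between 0.145 and 0.566 in BoM. GENCODE release 44, not the release used for the deposited counts, and RefSeq promoters (GRCh38.p14) gave positions and sequences.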

Additional observations from a re-analysis of the deposited data

How the results depend on the processing

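No called gene changed sign under the alternatives in which all libraries were kept, but counts of calls moved. Up to 12 of the 75 genes, none of them called, changed sign in the averaged comparison. With the GC correction 15 changed sign in the knockdown in BoM and 19 in the difference of response between BoM and LM2, again none of them called. With DESeq2, higher calls among the 75 genes numbered 1 in LM2, 5 in BrM3, 5 in BoM and 17 in the average, with 1 lower in the average and 10 lower in BoM against BrM3. With the GC correction, higher calls numbered 3, 6, 9 and 21, and lower calls 9 in BrM3 against LM2 and 10 in BoM against BrM3. Median-of-ratios scaling and TMM over all genes each gave 2 higher in BoM and 1 lower in the average. Without the filter BoM had 0 lower and 1 higher, and BoM against BrM3 turned from 4 lower and 9 higher to 10 lower and 5 higher. Fitted alone, BoM had 0 lower. Same-numbered libraries correlated over 0.1 in all 3 pairs of BoM but in 2 of 3 in LM2 and BrM3. The criterion for pairing, all 3 pairs over 0.1, was thus met in BoM alone, but it does not rank the lines. LM2 pairs 1 and 3 correlated at 0.576 and 0.729 and its pair 2 at 0.0251. In BoM pair 3 correlated at 0.145, below the 0.211 of shCtrl replicate 2 with shWDR5 replicate 3. Pairing in LM2 and BrM3 is therefore not excluded. With the replicate block there were 2 lower and 6 higher in BoM, 5 lower and 16 higher in the average, and 10 lower in BoM against BrM3. Calls over all tested genes are given above for median-of-ratios scaling after knockdown and for the replicate block in BoM. The other counts under alternatives have no share of all tested genes beside them.

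Leaving out 1 library at a time gave 0 to 4 higher in BrM3, 1 to 2 lower and 0 to 10 higher in BoM, and 1 to 5 lower and 6 to 19 higher in the average. Between shCtrl lines it gave 3 to 6 lower and 10 to 25 higher in BrM3 against LM2, 6 to 10 and 22 to 34 in BoM against LM2, and 3 to 8 and 6 to 13 in BoM against BrM3. Of the single genes, MRPS18B in BrM3 had an adjusted p of 0.0582 when that line was fitted alone, and MRPS5 in BrM3 of 0.0743 without the filter (edgeR). The cause of these shifts was not tested. Depth limits MRPL12, MRPL46 and MRPS17, whose shallowest libraries held 9, 30 and 54 reads.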
